A study of Mus musculus with 27 samples.

Results

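The cadherins and protocadherins of mouse cortical cultures were described across stimuli, transcription inhibitors and RNA fractions. The members were the 52 entries, of 59489 in the deposited gene table, whose symbols name a classical or related cadherin (Cdh and a number) or a protocadherin (Pcdh and a number, or a gene of the alpha, beta or gamma cluster). They comprised 5 type I cadherins, 13 type II cadherins, 5 other cadherins, 3 delta-1, 5 delta-2 and 3 other non-clustered protocadherins, 17 beta-cluster protocadherins and 1 entry that merges the alpha and gamma clusters. The cells were wild-type primary cortical cells, taken at embryonic day 16.5 and kept for 14 days in culture; the labels give neither strain nor sex. Polyadenylated RNA of 27 libraries was sequenced, in 9 groups of 3, and every group carried a transcription inhibitor. In the first experiment, 50 µM DRB, which blocks transcription elongation, was given for 2 h to cells treated for 1 h with 20 µM bicuculline, to cells treated for 1 h with 50 ng/mL BDNF, and to unstimulated cells; the titles of these 9 libraries state no RNA fraction. Bicuculline blocks inhibitory GABA-A receptors and so raises network activity, and BDNF is a neurotrophin that signals through the receptor TrkB. In the second experiment, 1 µM triptolide, which blocks transcription initiation, was given for 3 h to bicuculline-treated (20 µM, 1 h) and unstimulated cells, with RNA from the whole cell, the nucleus and the cytosol. The study asked how such cues remodel the neuronal transcriptome through retained introns; the values described here are levels of whole genes and hold no measure of introns.

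Cadherins are calcium-dependent adhesion proteins of the cell surface. Classical type I and type II cadherins bind the same or a related cadherin on the neighbouring cell and are anchored to actin through catenins, and in cortex they shape layers, synapses and wiring. Protocadherins form the largest branch of the family: the delta protocadherins are separate genes with region-specific expression, whereas the alpha, beta and gamma protocadherins lie in tandem clusters from which each neuron expresses its own combination of isoforms as a surface identity.

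Estimated depth, read from the steps of the low values, was 83408979 to 147943981 fragments in the DRB libraries and 67580336 to 89441548 in the triptolide libraries, so that 10 fragments on a gene of 2 kb gave 0.0338 to 0.0740 FPKM (fragments scaled to gene length and library size). Neuronal markers were abundant, with 7 of 7 excitatory, 6 of 6 inhibitory and 6 of 6 pan-neuronal markers at a median of 1 FPKM or more, as were 7 of 7 astrocyte and 7 of 8 oligodendrocyte-lineage markers, against 1 of 6 microglial and 1 of 8 vascular and mesenchymal markers, so RNA of neurons and of glia was present. In such bulk libraries fewer cells of a type and less RNA per cell cannot be told apart. Meg3, a long noncoding RNA of the nucleus, averaged 798 ± 29.1 FPKM in unstimulated nuclei and 78.9 ± 3.80 FPKM in unstimulated cytosol (SD, n = 3 each), and the stimulus-responsive genes Fos, Arc, Npas4 and Egr1 rose under DRB with bicuculline and with BDNF in 4 of 4 cases each (limma, adjusted p under 0.05). Under triptolide, their log2 differences with bicuculline in whole cells were smaller: Fos 0.75, Arc 0.69, Npas4 0.62 and Egr1 0.43. No gene of the 4 passed in any fraction by limma without a block for replicate number (adjusted p 0.157 to 0.554 in whole cells). With that block all passed in whole cells and cytosol, and all but Npas4 (0.11, limma adjusted p 0.406) in the nucleus.

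Of the 52 members, 40 reached 1 FPKM in at least 3 libraries and were tested in each experiment. The other 12 were Cdh1, Cdh3, Cdh5, Cdh15, Cdh16, Cdh17, Cdh19, Cdh23, Cdh26, Pcdh12, Pcdh18 and Pcdhb1. Cdh5 (VE-cadherin of blood vessels) was listed at 0 in 6 libraries, Cdh3 (P-cadherin) in 12 and Cdh16 (kidney-specific cadherin) in 20, and Cdh1 (E-cadherin of epithelia) in 1. Cdh26 reached 1 FPKM in a single library: it had 0.661, 1.02 and 0.670 FPKM in bicuculline-treated nuclei and 0.942, 0.809 and 0.940 FPKM in unstimulated nuclei, against 0.0818, 0.132 and 0.108 FPKM in bicuculline-treated cytosol. Its nuclear libraries all stood above those cytosolic libraries, and at these levels it was not tested.

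Among the 40 tested members the most abundant per length was Cdh13 (T-cadherin, which is held in the membrane by a lipid anchor and lacks the intracellular part that binds catenins), at a mean of 149 FPKM over the 27 libraries and a range of 100.2 to 211 FPKM. Cdh2 (N-cadherin, the type I cadherin of neurons and neural progenitors) followed at 85.4 FPKM, with a range of 62.1 to 107 FPKM. The next were the delta-1 protocadherin Pcdh9 at 32.1 FPKM, the type I cadherin Cdh4 (R-cadherin) at 24.5 FPKM, Pcdh7 at 23.4 FPKM, the type II cadherin Cdh8 at 22.8 FPKM and the delta-2 protocadherin Pcdh8 at 22.4 FPKM, whose ranges overlapped throughout (19.4 to 43.7 FPKM for Pcdh9, 13.6 to 40.6 FPKM for Pcdh8). All other tested members averaged under 21 FPKM, down to 1.59 FPKM for Pcdhb15. Within the beta cluster the highest means were 10.6 FPKM for Pcdhb9, 6.31 FPKM for Pcdhb20 and 5.51 FPKM for Pcdhb17, and the median of its 17 entries was 3.78 FPKM. Members together held 0.123 to 0.156% of the summed FPKM of a DRB library and 0.129 to 0.176% of that of a triptolide library.

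**Figure D1:**
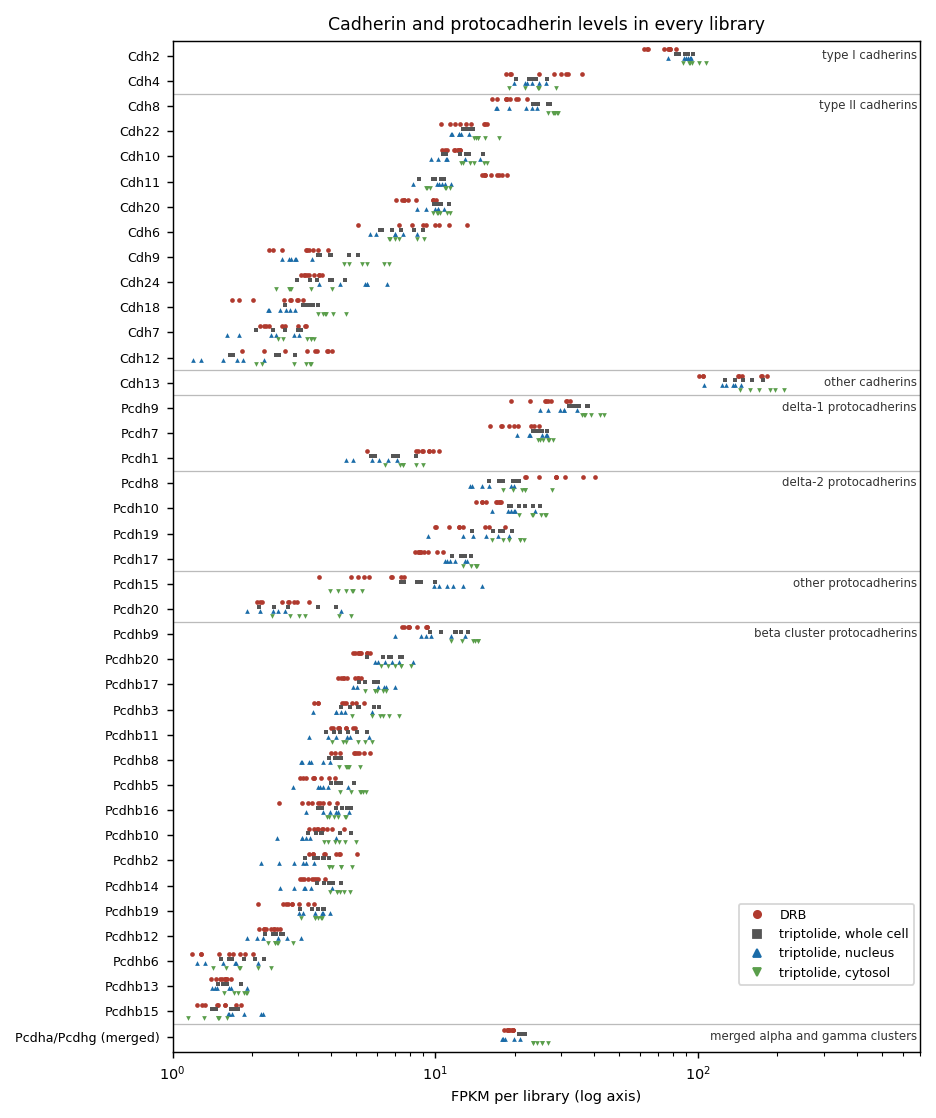
FPKM (log axis) of the 40 tested members in each of the 27 libraries, 1 row per member and 1 point per library, grouped by class; DRB libraries are red circles, and triptolide whole-cell, nuclear and cytosolic libraries are grey squares, blue upward and green downward triangles. Cdh13 and Cdh2 lie apart at the right, at means of 149 and 85.4 FPKM, and for Pcdh15 the nuclear points lie to the right of the cytosolic ones, the opposite of the order seen for Cdh9.

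The members lie on 11 chromosomes, and 21 of the 52 are on chromosome 18, where the 3 clusters and Cdh2 are found; 8 are on chromosome 8, which carries Cdh8 and Cdh13. The merged entry joins 39 gene symbols, of which 14 are alpha and 22 are gamma protocadherins and 3 are other genes, over chromosome 18 from 36694473 to 37841961 (mm10), an interval that also spans the beta genes. Alpha and gamma isoforms each join a variable first exon to constant exons shared within their cluster, so this entry, at 17.9 to 26.8 FPKM, says nothing about single isoforms. Of 22 beta genes in the GENCODE annotation 17 had an entry; Pcdhb4, Pcdhb7, Pcdhb18, Pcdhb21 and Pcdhb22 were not analysed here. Beta genes are near-identical in stretches of sequence, and how fragments that map to several of them were counted is not given in the sources used here, so values of single beta genes are uncertain.

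The comparison of nucleus with cytosol asked where the polyadenylated RNA of each member was found. In unstimulated cells under triptolide, 24 of 40 members had lower FPKM in the nucleus than in the cytosol and 3 had higher FPKM (limma on log2(FPKM + 0.5) without a block for replicate number, Benjamini-Hochberg adjusted p under 0.05), where 28.0% of all 14205 tested entries were lower and 39.0% higher. With replicate number as a block, the counts were 30 lower and 3 higher, against 33.1% and 42.8% of all tested entries. The median log2 difference was -0.41 over the members and 0.06 over all tested entries. The same sign in 3 of 3 matched pairs (libraries of the same replicate number) was seen for 34 members in the lower direction, where 37.7% of all entries were lower in 3 of 3 pairs. FPKM are shares of a library, so a difference between fractions is relative to the other RNA of that fraction and is not an amount per cell. The p-values measure only the spread between these libraries, since the labels do not say that replicates came from separate cultures.

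Type II cadherins were lower in the nucleus in 7 of 11 cases. Cdh9, a type II cadherin that in mouse hippocampus acts at mossy fibre synapses, had 2.94, 2.62 and 3.38 FPKM in unstimulated nuclei, against 4.70, 5.50 and 6.37 FPKM in unstimulated cytosol. Every nuclear library was below every cytosolic one, and the log2 difference was -0.79 ± 0.14 (SE, n = 3 each), with an adjusted p of 1.42e-04 from limma. Cdh8, which marks subsets of cortical and striatal neurons and takes part in corticostriatal wiring in mouse, had 17.2, 19.1 and 17.1 FPKM in unstimulated nuclei, against 29.0, 28.5 and 28.1 FPKM in unstimulated cytosol. The groups were well separated, and its log2 difference of -0.67 ± 0.06 had a limma adjusted p of 5.95e-08. Cdh12 (-0.74), Cdh18 (-0.63), Cdh10 (-0.40) and Cdh22 (-0.37) also fell in the nucleus. Of the type I cadherins, Cdh2 had a log2 difference of -0.20 with an adjusted p of 0.0370, a direction that turned to 0.037 under quantile normalization, and Cdh4 had one of -0.10 that did not pass the test.

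Cdh13 had 105, 135 and 123 FPKM in unstimulated nuclei, against 170, 211 and 195 FPKM in unstimulated cytosol. The lowest cytosolic library stood above the highest nuclear one, at a log2 difference of -0.67 ± 0.13 and a limma adjusted p of 3.22e-04. All 3 delta-1 protocadherins among the members fell in the nucleus: Pcdh1 by 0.52, Pcdh9 by 0.49 and Pcdh7 by 0.29 on the log2 scale. The protocadherin Pcdh11x, whose symbol lies outside the rule, is counted below with the large members of the superfamily. It went the other way, at a log2 difference of 0.50 and a limma adjusted p of 2.48e-04. The 4 tested delta-2 protocadherins fell as well, namely Pcdh8 by 0.68, Pcdh19 by 0.65, Pcdh10 by 0.42 and Pcdh17 by 0.32. Pcdh19, on the X chromosome, is known in human for epilepsy in females who carry 1 altered copy. The merged alpha and gamma entry had 17.9, 18.1 and 18.2 FPKM in unstimulated nuclei, against 25.5, 25.3 and 26.8 FPKM in unstimulated cytosol, a log2 difference of -0.51 ± 0.05 with an adjusted p of 3.08e-07 (limma). Of the 16 tested beta genes, 7 fell, led by Pcdhb9 (-0.70), Pcdhb3 (-0.66), Pcdhb2 (-0.66), Pcdhb5 (-0.60) and Pcdhb8 (-0.54).

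The 3 members that were higher in the nucleus were Pcdh15, Cdh24 and Pcdhb15. Pcdh15, which in the inner ear forms the tip links of hair cells, had 11.7, 12.7 and 11.1 FPKM in unstimulated nuclei, against 3.97, 4.86 and 4.25 FPKM in unstimulated cytosol. The nuclear level was 2.71-fold the cytosolic one with no overlap, at a log2 difference of 1.34 ± 0.13 and a limma adjusted p of 2.02e-07. Cdh24, a type II cadherin, had 5.51, 5.40 and 4.32 FPKM in unstimulated nuclei, against 3.36, 2.81 and 2.83 FPKM in unstimulated cytosol, a log2 difference of 0.67 ± 0.19 with an adjusted p of 0.00548 from limma. Its nuclear libraries all stood above its cytosolic ones. Pcdhb15, at 2.21, 1.65 and 1.63 FPKM in unstimulated nuclei and 1.49, 1.49 and 1.14 FPKM in unstimulated cytosol, was also higher (log2 difference 0.31, adjusted p 0.0292), but its direction turned to -0.25 under quantile normalization.

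The split between higher and lower calls moved with the scaling. The median log2 difference of all tested entries was 0.06 as deposited, -0.25 after median-ratio scaling and -0.12 after quantile normalization. The members called were 1 higher and 37 lower, and 1 higher and 34 lower, under these scalings. At most 1 of Pcdh15, Cdh24 and Pcdhb15 thus kept its call as higher under each. The background moved as well, and its called shares under these scalings are not given, so the counts do not set the members apart. Marker sums moved between the fractions as well: inhibitory markers, at a median of 1 FPKM or more in 6 of 6 cases, summed to 193 to 212 FPKM in unstimulated nuclei and 499 to 587 FPKM in unstimulated cytosol, and excitatory markers, so detected in 7 of 7 cases, to 708 to 814 FPKM in unstimulated nuclei and 535 to 578 FPKM in unstimulated cytosol. Their part in the members' differences was not tested.

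In bicuculline-treated cells the same comparison gave 10 lower and 3 higher members, where 31.9% of all tested entries were lower and 31.3% higher. With the replicate block it gave 20 lower and 3 higher, against 38.8% and 35.2% of all. The members' median log2 difference was -0.13, and that of all tested entries -0.04. Cdh9 had 2.92, 2.81 and 2.77 FPKM in bicuculline-treated nuclei, against 4.49, 5.25 and 6.64 FPKM in bicuculline-treated cytosol, and its log2 difference of -0.82 was close to that of unstimulated cells. Cdh12 (-0.55), Cdh18 (-0.39), Pcdhb2 (-0.31), Pcdh9 (-0.31), Pcdhb14 (-0.27), Cdh8 (-0.27), the merged entry (-0.26), Pcdhb8 (-0.26) and Cdh22 (-0.19) were the other members that fell. Pcdh15 (1.17), Cdh24 (0.66) and Pcdhb15 (0.29) were again higher; for Pcdhb15 the direction turned to -0.11 under quantile normalization. After median-ratio scaling the counts were 25 lower and 2 higher. The share of all tested entries called under that scaling is not given, so this count does not set the members apart.

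**Figure D2:**
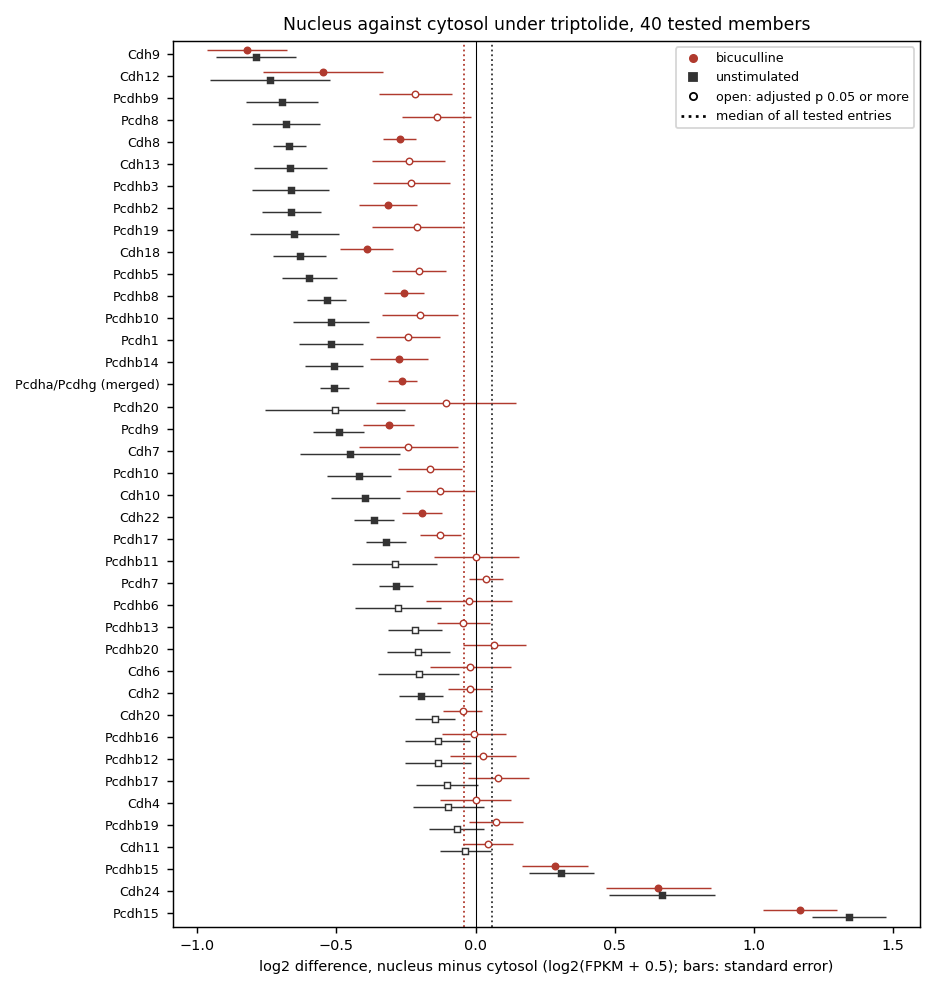
Log2 difference of nucleus minus cytosol on log2(FPKM + 0.5) for the 40 tested members, with standard errors, in bicuculline-treated cells (red circles) and unstimulated cells (black squares); open symbols have an adjusted p of 0.05 or more, and dotted lines mark the medians of all tested entries, -0.04 and 0.06. Most unstimulated values lie left of 0 and most bicuculline values lie to the right of their unstimulated partner, while Pcdh15, Cdh24 and Pcdhb15 lie at the right in both.

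The comparison of bicuculline-treated with unstimulated nuclei asked how the nuclear level of the members changed with activity while new initiation was blocked. Cdh8 rose and no other member passed the test (limma without a block), 1 of 40 members where 1.81% of all tested entries were called. At an unadjusted p under 0.05 the members counted 13 and all tested entries 2467. With the replicate block, 16 of 40 members were called, all higher, where 13.1% of all tested entries were called and 7.72% were higher. Over the 3 matched pairs, 29 members were higher in 3 of 3, against 20.0% of all tested entries, and none was lower in 3 of 3. The median log2 difference was 0.18 over the members, 38 of 40 of which lay above 0, and -0.02 over all tested entries. The block count moved with the replicate left out, most with replicate 1: leaving out replicate 1 from every group gave 0 members, leaving out replicate 2 gave 13 and leaving out replicate 3 gave 8, while all called entries numbered 70, 1516 and 972.

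Cdh8 had 24.4, 22.1 and 23.3 FPKM in bicuculline-treated nuclei, against 17.2, 19.1 and 17.1 FPKM in unstimulated nuclei. Its lowest stimulated library stood above its highest unstimulated one. The nuclear level was 1.31-fold higher, at a log2 difference of 0.38 ± 0.06 (SE, n = 3 each) and a limma adjusted p of 0.00832, or 9.28e-04 with the replicate block. Without replicate 1 of the unstimulated nuclei the adjusted p was 0.0619 and the call was lost. The Cdh8 gene lies on the minus strand of chromosome 8 from 99024471 to 99416471 (mm10), over 392001 bases with 12 exons in the GENCODE annotation. The 250 bases before its start are shown here, as those of Pcdh8 are below. Cdh8 was the only member called for a bicuculline response without the block. Pcdh8 was the only member called for a stimulus under DRB, and only with the block. A part of these promoters in the responses was not tested. In these RefSeq promoter sequences (build GRCm38.p6) the letters TGACGTCA (the full cyclic-AMP response element), TGACG (its core, which any TGACGTCA also contains), TGANTCA (the AP-1 element), TATAAA (the TATA box) and CCAAT were searched on both strands, and matches are in capitals. Cdh8 lies at chr8:99416472-99416721, minus strand, and holds a CCAAT whose first base is 19 bases before the start and a TGACG, read on this strand as CGTCA, 8 bases before it:

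Cdh8 promoter: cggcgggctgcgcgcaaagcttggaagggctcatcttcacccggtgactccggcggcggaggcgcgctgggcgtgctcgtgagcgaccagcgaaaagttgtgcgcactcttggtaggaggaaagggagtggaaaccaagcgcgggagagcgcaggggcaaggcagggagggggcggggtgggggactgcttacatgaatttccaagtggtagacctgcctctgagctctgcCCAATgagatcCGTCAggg

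Of 32851 RefSeq promoters of this length, 17.8% held TGACG, 1.55% TGACGTCA, 6.75% TGANTCA, 12.4% TATAAA and 33.8% CCAAT. RefSeq promoters matched 22 of the 52 members, of which 3 held TGACG, 2 TATAAA and 14 CCAAT, and none held TGACGTCA or TGANTCA. A match is a description of letters and not a site of binding.

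Pcdh8 (arcadlin), a delta-2 protocadherin that in rat hippocampus is induced by seizures and draws N-cadherin from the surface, had 19.5, 16 and 20.0 FPKM in bicuculline-treated nuclei, against 13.8, 13.6 and 15.0 FPKM in unstimulated nuclei. The groups did not overlap, but the log2 difference of 0.37 ± 0.12 did not pass without the block (limma adjusted p 0.129) and passed with it (adjusted p 0.00198). The same held for Pcdhb9, which had 13.0, 11.5 and 9.64 FPKM in bicuculline-treated nuclei, against 8.81, 9.22 and 7.03 FPKM in unstimulated nuclei. Its difference of 0.42 had a block adjusted p of 2.25e-04, and each matched pair was higher with bicuculline. The other members called with the block, by class, were Cdh10 (0.30) and Cdh6 (0.22) among type II cadherins, Cdh13 (0.18), the delta-1 protocadherins Pcdh1 (0.36), Pcdh7 (0.24) and Pcdh9 (0.20), the delta-2 protocadherins Pcdh19 (0.42) and Pcdh10 (0.17), Pcdh20 (0.36), and the beta genes Pcdhb2 (0.25), Pcdhb5 (0.25), Pcdhb3 (0.24) and Pcdhb11 (0.18). All 16 tested beta genes lay above 0, with a median log2 difference of 0.18 and a range of 0.05 to 0.42. Cdh2 (0.12), Cdh4 (0.09) and the merged entry (0.12) did not pass with or without the block, and Cdh9 (-0.06) and Pcdh15 (-0.03) lay below 0.

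Between bicuculline-treated and unstimulated cytosol Cdh13 and Pcdhb3 fell with the block, and no member was called by limma without it, where 3.27% of all tested entries were called; at an unadjusted p under 0.05 there was 1 member, and 2769 of all tested entries. With the replicate block 2 members were called, both lower, where 15.3% of all tested entries were called but only 0.795% were lower. The median log2 difference was -0.06 over the members and 0.08 over all tested entries, a background median that was -0.01 after median-ratio scaling and 0.00 in size after quantile normalization. Lower values in 3 of 3 matched pairs were found for 18 members, against 7.62% of all tested entries. The first of the 2 was Cdh13, at 144, 188 and 157 FPKM in bicuculline-treated cytosol, against 170, 211 and 195 FPKM in unstimulated cytosol. Its ranges overlapped but each pair was lower with bicuculline, at a log2 difference of -0.24 with an adjusted p of 0.339 without the block and 0.00455 with it. Pcdhb3 had 6.67, 5.73 and 4.82 FPKM in bicuculline-treated cytosol, against 7.30, 6.33 and 6.17 FPKM in unstimulated cytosol, a difference of -0.19 with a block adjusted p of 0.0435. Again the ranges overlapped and each pair was lower. Pcdh8, at 21.3, 18 and 21.9 FPKM in bicuculline-treated cytosol and 22.0, 19.7 and 27.9 FPKM in unstimulated cytosol, had a difference of -0.17 that did not pass with the block (adjusted p 0.0808). The block count was 0 without replicate 1, 1 without replicate 2 and 0 without replicate 3. All called entries numbered 92, 1208 and 247 in turn. When the block was joined to median-ratio scaling, 10 members were lower, a count given without the share of all tested entries.

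Whether the response differed between the fractions was tested directly, as the bicuculline response in nucleus minus that in cytosol. The difference was called for 1 member, Cdh8, where 0.556% of all tested entries were called; at an unadjusted p under 0.05 the counts were 10 members and 2326 of all entries. With the replicate block 15 members were called, all higher in the nucleus, where 9.76% of all tested entries were called and 2.84% were higher. The median was 0.24 over the members and -0.11 over all tested entries, so that the members and the background lay on opposite sides of 0. The background median was 0.01 and -0.01 after median-ratio scaling and quantile normalization. In 3 of 3 matched pairs 32 members were higher in the nucleus, against 10.2% of all tested entries. Leaving out replicate 1 gave 0 members with the block, leaving out replicate 2 gave 11 and leaving out replicate 3 gave 0, while all called entries numbered 3, 1423 and 12.

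For Cdh8 the difference was 0.40 ± 0.08 on the log2 scale, with a limma adjusted p of 0.0473 and 0.0100 with the block: bicuculline-treated cytosol had 28.2, 26.9 and 29.4 FPKM, against 29.0, 28.5 and 28.1 FPKM in unstimulated cytosol, which overlapped, while the nuclear libraries given above did not. This call was lost in 10 of 12 fits that each left out 1 library, over which the adjusted p was 0.0130 to 0.144. Pcdh8 had the largest difference of the members, 0.54 ± 0.17, with an adjusted p of 0.155 without the block and 0.00404 with it. Next among those called with the block were Pcdhb9 (0.48, block adjusted p 0.00227), Cdh13 (0.43, block adjusted p 0.00298) and Pcdhb3 (0.43, block adjusted p 0.0100). The other members called with the block were Pcdh20 (0.40), Pcdhb5 (0.39), Pcdhb2 (0.35), Pcdh7 (0.32), Pcdhb10 (0.32), Pcdhb11 (0.29), Pcdh1 (0.27), Cdh10 (0.27), Pcdh10 (0.25) and the merged entry (0.24), while Pcdh19 (0.44) did not pass with it (adjusted p 0.117). Only Pcdh15 (-0.18), Cdh9 (-0.03), Pcdhb15 (-0.02) and Cdh24 (-0.01) lay below 0; of these, Pcdh15, Cdh24 and Pcdhb15 were the 3 members with higher nuclear than cytosolic FPKM. Both measures use the same nuclear and cytosolic libraries, so they are not independent of each other.

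**Figure D3:**
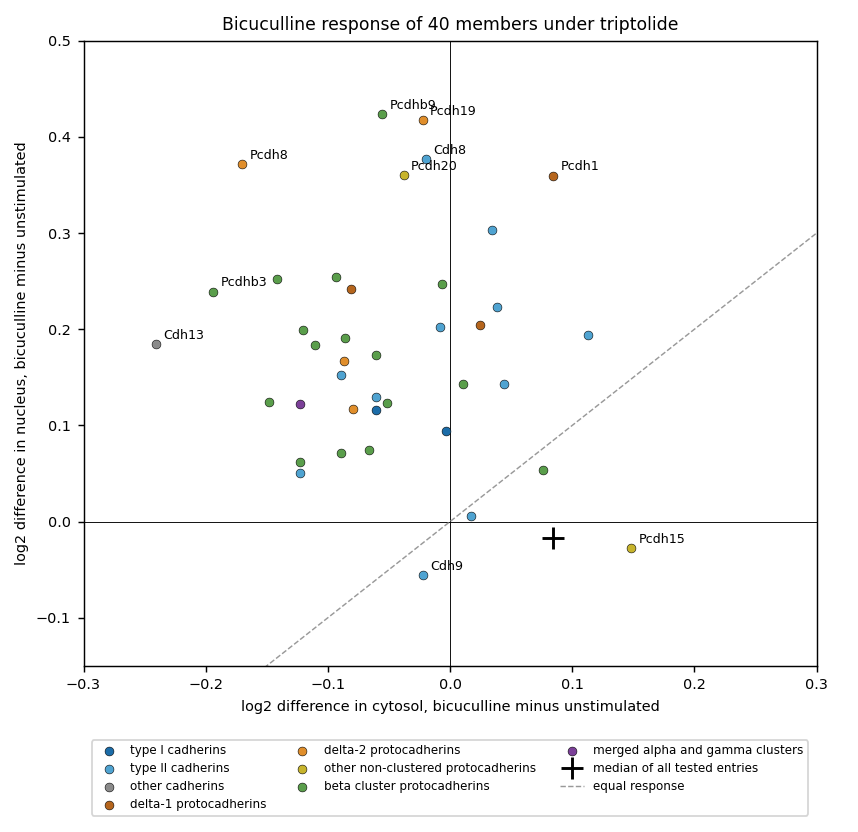
Bicuculline response under triptolide (log2 difference, bicuculline minus unstimulated, on log2(FPKM + 0.5)) of the 40 tested members in the nucleus (vertical axis) and the cytosol (horizontal axis), coloured by class; the cross is the median of all tested entries (-0.02 in nucleus, 0.08 in cytosol) and the dashed line marks equal responses. All but 4 members lie above the dashed line, with Pcdh8 at 0.37 in the nucleus and -0.17 in the cytosol.

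The shift was also set against gene structure. Beta genes have a single coding exon, and the 16 tested members with 1 coding exon had a median shift of 0.26, against 0.20 for the 23 members with 2 or more. Among the other tested genes the medians were -0.04 for 488 genes with 1 coding exon and -0.11 for 10494 with 2 or more. For the 16 members that span 100 kb or more the median was 0.19, against -0.12 for 1823 other tested genes of that span. Across the 39 members with an annotated span, Spearman's rho between span and the unstimulated nucleus-cytosol difference was 0.03, and it was 0.12 across all 11021 matched tested genes; genes of 1 cluster share sequence and neighbours, so these are descriptions.

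In whole cells under triptolide no member was called between bicuculline-treated and unstimulated cells by limma, where 0.0352% of all tested entries were called; at an unadjusted p under 0.05 there were 2 members, Pcdh1 and Cdh8, and 1566 of all entries. Pcdh1, a delta-1 protocadherin also of airway epithelium, had 6.88, 8.41 and 7.19 FPKM in bicuculline-treated cells, against 5.90, 6.97 and 5.69 FPKM in unstimulated cells. The ranges overlapped slightly, and each pair was higher. The log2 difference was 0.26 ± 0.11, with a limma adjusted p of 0.425, and 0.0231 with the block, where 4.23% of all tested entries were called. That block call was lost when any 1 replicate number was left out. Cdh8 had 26.9, 24.5 and 27.3 FPKM in bicuculline-treated whole cells, against 24, 24.3 and 23.4 FPKM in unstimulated ones, without overlap and at a log2 difference of 0.13 with an adjusted p of 0.434. The members' median was 0.03, as was that of all tested entries.

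Under DRB, Pcdh8 showed the largest difference of the members with either stimulus. It had 28.7, 31.2 and 40.6 FPKM with bicuculline, 24.8, 28.7 and 36.3 FPKM with BDNF, and 22.1, 21.9 and 28.8 FPKM in unstimulated cells. Within each replicate number bicuculline was highest, BDNF next and unstimulated lowest, but replicate 3 stood high in all groups, so that the ranges overlapped. The means were 33.5 ± 6.24 FPKM with bicuculline, 29.9 ± 5.86 FPKM with BDNF and 24.2 ± 3.90 FPKM unstimulated (SD, n = 3 each). With bicuculline the level was 1.38-fold higher, at a log2 difference of 0.45 whose standard error was 0.18 without the block and 0.05 with it; the limma adjusted p was 1.00 without the block and 0.00889 with it. With BDNF the level was 1.23-fold higher, at a log2 difference of 0.29 with adjusted p values of 1.00 and 0.0418.

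Pcdh8 was the only member called in either comparison, and only with the block. Without it, 0 of 40 members were called by limma with bicuculline and 0 with BDNF, where 0.308% and 0.638% of all 13321 tested entries were called; with it, 1 member was called in each, where 0.571% and 1.49% were. At an unadjusted p under 0.05 without the block, there was 1 member with bicuculline and 0 with BDNF, and 266 and 462 of all entries. With the block, the bicuculline call was lost without replicate 1 and without replicate 2 and held without replicate 3, and the BDNF call was lost without any 1 of the 3. The medians over members were -0.02 with bicuculline and 0.03 with BDNF, and 0.00 in size over all entries in both.

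The promoter of Pcdh8, at chr14:79771313-79771562 on the minus strand, holds a TATAAA whose first base is 30 bases before the start, and a CCAAT, read on this strand as ATTGG, 68 bases before it. The gene covers 4543 bases with 3 exons. Its promoter matched none of the other motifs searched:

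Pcdh8 promoter: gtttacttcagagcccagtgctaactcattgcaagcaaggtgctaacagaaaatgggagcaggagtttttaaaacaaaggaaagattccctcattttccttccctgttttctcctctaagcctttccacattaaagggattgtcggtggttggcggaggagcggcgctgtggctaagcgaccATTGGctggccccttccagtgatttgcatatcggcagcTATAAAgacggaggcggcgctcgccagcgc

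**Figure D4:**
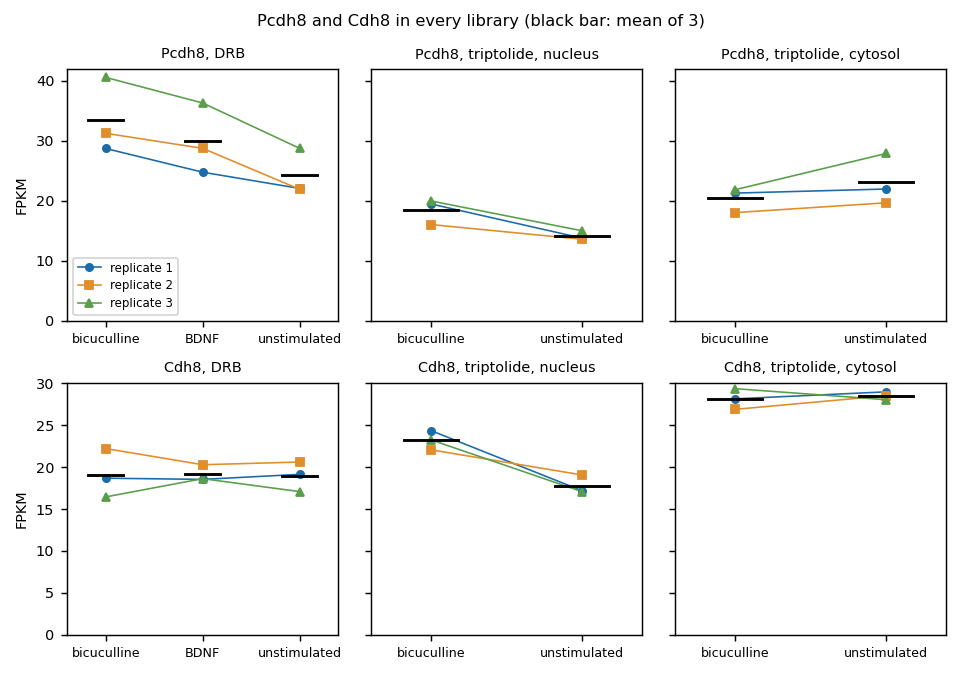
FPKM of Pcdh8 (upper row) and Cdh8 (lower row) in each library under DRB and in the nucleus and cytosol under triptolide; lines join libraries of the same replicate number and black bars are means of 3. Under DRB, Pcdh8 is highest with bicuculline and lowest in unstimulated cells for each replicate number, and both genes stand higher with bicuculline in the nucleus.

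No member was called between BDNF and bicuculline (0 of 40 by limma with and without the block, where 0.54% and 0.128% of all tested entries were called; 0 members and 347 entries had an unadjusted p under 0.05). For Pcdh8 the log2 difference of BDNF minus bicuculline was -0.16, and for Pcdh1 it was 0.33. Pcdh1 had 9.82, 9.49 and 10.3 FPKM with BDNF, 8.86, 9.48 and 5.47 FPKM with bicuculline, and 9.0, 8.42 and 8.58 FPKM in unstimulated cells. The lowest BDNF library (9.49 FPKM) stood barely above replicate 2 with bicuculline (9.48 FPKM), and replicate 3 with bicuculline stood below all others. BDNF against unstimulated cells did not pass for Pcdh1 with or without the block (limma adjusted p 0.981 with it). These tests share libraries and are not independent of each other.

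For most other members under DRB, more of the variance lay between replicate numbers than between stimuli. Cdh13 had 143, 104 and 182 FPKM with bicuculline, 147, 104 and 175 FPKM with BDNF, and 142, 100.2 and 173 FPKM in unstimulated cells. Replicate 2 was lowest and replicate 3 highest in every group, and 99.3% of the variance of its log2 values lay between replicate numbers. Cdh12, a type II cadherin, had 3.89, 3.54 and 1.84 FPKM with bicuculline, 4.03, 3.48 and 2.67 FPKM with BDNF, and 3.87, 3.24 and 2.23 FPKM in unstimulated cells, with replicate 3 lowest in each group. Pcdhb3 ran the other way, at 3.44, 4.40 and 5.34 FPKM with bicuculline, 3.58, 4.55 and 4.81 FPKM with BDNF, and 3.58, 4.48 and 4.98 FPKM in unstimulated cells. Over the 40 members, the median share of variance was 3.72% for stimulus and 79.4% for replicate number, against 10.8% and 55.9% over all tested entries. The replicate share exceeded the stimulus share for 38 of 40 members, and for 79.5% of all entries. The exceptions were Pcdh1 and Pcdhb19; the share of Pcdhb19 was 4.66% by replicate number and 87.7% in the remainder, and Pcdhb15 (32.2% by replicate number) and Pcdhb16 (30.8%) also lay mostly in the remainder. Pcdh8 (45.8% stimulus, 52.2% replicate number) and Pcdh1 (33.0% and 17.5%) had the largest stimulus shares. Under triptolide, where the 6 groups include the fractions, the members' median shares were 57.6% for group and 31.5% for replicate number, against 74.8% and 9.14% over all entries.

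**Figure D5:**
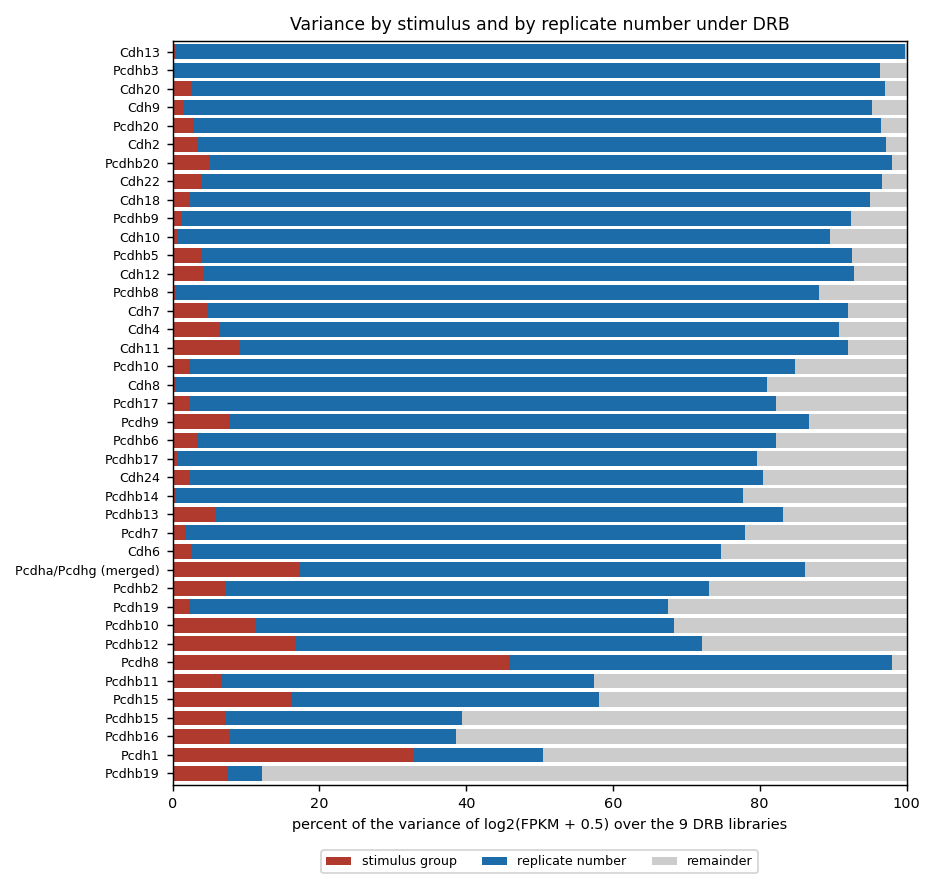
Share of the variance of log2(FPKM + 0.5) over the 9 DRB libraries that lay between stimulus groups (red), between replicate numbers (blue) and in the remainder (grey), for the 40 tested members ordered by the replicate share. Cdh13 heads the order with 99.3% by replicate number, and Pcdh8 has the widest red bar, 45.8%.

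The bicuculline response under DRB minus that in triptolide whole cells was called for no member by limma (0 of 40 with and without the block, where 0.287% and 0.136% of all 13930 tested entries were called; 0 members and 404 entries had an unadjusted p under 0.05). For Pcdh8 this difference was 0.39 ± 0.22, with adjusted p values of 1.00 without the block and 0.107 with it. The experiments also differ in inhibitor time and possibly in RNA fraction, and these cannot be told apart from the inhibitor.

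Genes that act with the cadherins were counted by role. The catenins and other cadherin adaptors, which link the cadherin tail to actin, were more often higher than lower in the nucleus: 8 of 14 tested were higher in unstimulated nuclei than in unstimulated cytosol and 0 lower by limma, with a median log2 difference of 0.40. Over all tested entries 39.0% were higher and 28.0% lower in this comparison. The called catenins and adaptors included Ctnnal1 (1.41), Vcl (vinculin, 0.98), Ctnnb1 (beta-catenin, 0.60) and Ctnna1 (alpha-E-catenin, 0.58). Of 9 proteases that cleave cadherins, 7 were lower and 1 higher; Ncstn (nicastrin, -0.54) and Furin (-0.52), which removes the propeptide, fell, while Adam17 (0.37) rose. Of 16 members of the WAVE complex and kinases bound by protocadherins, 5 were higher, with Wasf2 at 0.90, and 6 lower, with Ret at -0.70, Cyfip2 at -0.47 and Wasf1 at -0.47. Of 12 regulators of the protocadherin clusters, such as cohesin and its partners, 8 were higher and 2 lower, with Stag1 at 1.36, Lbr at 1.33, Nipbl (the cohesin loader) at 1.06 and Setdb1 (a histone methyltransferase) at 0.83. Of 10 large members of the superfamily, 6 were higher, with Celsr3 at 1.40, Fat1 at 0.68 and Fat3 at 0.65, and 2 lower, with Celsr2 at -0.67.

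With bicuculline in the cytosol, Ctnnd1 (p120-catenin, 0.21), Abi2 (0.35), Ptk2 (focal adhesion kinase, 0.32) and Ctcf (the insulator protein that binds protocadherin promoters, 0.35) rose (limma, adjusted p under 0.05), 4 of the 61 tested genes of the 5 lists, where 3.27% of all tested entries were called. With the replicate block 15 of the 61 were called there, all higher, where 15.3% of all tested entries were called and 0.795% were lower. In bicuculline-treated nuclei 0 of the 61 were called by limma without the block (12 at an unadjusted p under 0.05) and 10 with it, 9 higher and 1 lower, where 13.1% of all tested entries were called with the block. For the bicuculline response in nucleus minus cytosol 0 were called without the block (10 at an unadjusted p under 0.05), and 4 were higher and 3 lower with it, where 9.76% of all tested entries were called, 3 of the higher ones being proteases, whose list median was 0.20. Under DRB 0 of the 61 were called by limma with or without the block for either stimulus, with 0 at an unadjusted p under 0.05 for bicuculline and 2 for BDNF.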

How the data were processed

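The deposited values are FPKM per gene entry, made by the authors from polyadenylated RNA (TruSeq Stranded mRNA libraries, per the labels' protocols). Per the submitters' processing notes the tools were STAR 2.4.0, SAMtools, Picard and FastQC on mm10. Which program counted the fragments, with what strand setting, and how multi-mapping ones were treated is not given in the sources used here. Coordinates are those of the file or of the GENCODE annotation of the same build.

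The members and lists were chosen with earlier results of these data known. Entries with at least 1 FPKM in at least 3 libraries of a fit were tested on log2(FPKM + 0.5) with limma 3.58.1 (trend, robust; R 4.3.3), a mean per group, the 9 DRB and the 18 triptolide libraries apart; Benjamini-Hochberg adjustment ran over all tested entries and the threshold was 0.05. Fold changes on this scale understate those of low genes. Means, shares and figures were made with matplotlib 3.10.9, numpy 2.4.6 and pandas 2.3.3 under Python 3.11.15. The code was checked on simulated data. FPKM are not counts, so no count test was run; depth was estimated from the steps of low values. Variance shares are sums of squares of log2 values by group, by replicate number and the remainder.

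Fits with replicate number as a block were an alternative. Libraries of the same replicate number carry shared names in the sample descriptions and deviated together from their group means (r of 0.463 to 0.902 over 9 pairs under DRB and 0.256 to 0.692 over 45 pairs under triptolide), so the numbers pair the libraries. Other alternatives were pseudocounts of 0.1 and 1, a filter of 0.2 FPKM or none, median-ratio scaling, quantile normalization and leaving out each library. The text names members called in a comparison (beyond 24, the 12 largest changes each way), the 3 most abundant of each class, and at most 4 called genes of each other list; Cdh26, Pcdh17 and members called only with the block were added after their values were seen.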

Additional observations from a re-analysis of the deposited data

Results flagged for a closer look

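For Cdh8 the bicuculline response differed between nucleus and cytosol under triptolide, by 0.40 on the log2 scale (limma test of the difference, adjusted p 0.0473, and 0.0100 with the replicate block). The response was 0.38 in the nucleus, where it was higher in 3 of 3 matched pairs, and -0.02 in the cytosol, where 1 of 3 pairs was higher. The call without the block was lost in 10 of 12 fits that each left out 1 library, and with the block no member was called without replicate 1 or without replicate 3.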

How the results depend on the processing

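Counts of called members moved by over 1.5 times under the following settings. With the replicate block the count was 1 against 0 for bicuculline and for BDNF under DRB and for triptolide whole cells, 16 against 1 for the nucleus, 2 against 0 for the cytosol, 15 against 1 for the difference between the fractions, and 23 against 13 for nucleus against cytosol in bicuculline-treated cells. With the block and median-ratio scaling the counts were 1 for bicuculline under DRB, 18 for the nucleus, 10 for the cytosol, 22 for the difference and 36 for nucleus against cytosol with bicuculline; with the block and quantile normalization they were 1 for bicuculline and 1 for BDNF under DRB, 21, 2, 24 and 27 in that order. Without the block, median-ratio scaling gave 2 for the nucleus, 3 for the difference and 27 for nucleus against cytosol with bicuculline, quantile normalization gave 3 for the nucleus, and a filter of 0.2 FPKM or none gave 0 for the difference. The fits that join the block to a scaling or leave out a replicate number were chosen after seeing the data. Counts under the scalings and filters stand without the shares of all tested entries, so they describe the settings and not the members. The cause was not tested, beyond the smaller standard errors of the block and the fewer libraries of the fits that leave some out. Elsewhere the block changed calls only as the counts printed with the results show.

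Leaving out 1 library at a time gave 0 to 1 members for the nucleus, 0 to 2 for the difference, 25 to 28 for nucleus against cytosol in unstimulated and 9 to 13 in bicuculline-treated cells, and 0 in all other comparisons. With the block and without 1 replicate number the ranges were 0 to 1 for bicuculline under DRB, 0 to 0 for BDNF, 0 to 0 for whole cells, 0 to 13 for the nucleus (8 without replicate 3), 0 to 1 for the cytosol, 0 to 11 for the difference, and 30 to 33 in unstimulated and 14 to 22 in bicuculline-treated cells for nucleus against cytosol. Under quantile normalization, with and without the block, the nucleus-cytosol difference reversed for Pcdhb15 (-0.25 unstimulated, -0.11 with bicuculline) and Cdh2 (0.037 unstimulated). Values of single members over all settings were counted only for members called in a comparison with or without the block. Of the values of members called without it, 695 kept their direction and call, 61 lost the call and 6 reversed. Of those of members called only with it, 741 stayed uncalled and 243 became called, the block setting among them. Scalings stand against each other because FPKM are shares of a library. The 12 untested members were left out by the filter of 1 FPKM in at least 3 libraries. Those listed at 0 in some libraries are also limited by depth.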
